A study of Mus musculus with 6 samples.

Results

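Mouse chromosome 2 was examined band by band in oviductal epithelial cells with and without a mutant p53 plasmid. Genes were chosen by 2 properties of the deposited tables. The annotation text of the array row had to place the gene on chromosome 2, and the higher of the 2 group means had to exceed 4.53, the median of all rows on the log2 scale. The first step found 1856 genes and the second kept 1057 of them, which are called members below, out of 14932 genes of the whole array above the same level. The other 799 genes of the chromosome lay below the level in both groups and include nearly all olfactory receptor genes, of which 7 of 291 were kept. Because a group mean was used in the choice, counts over the members are given beside counts without the level filter, and they describe the chromosome rather than test it.

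The cells are mouse oviductal epithelium (MOE), cultured from the organ that corresponds to the human fallopian tube. The control group is a stable line that received the empty vector pCMV-Neo, with 3 arrays, and the other is a stable line that received a plasmid for p53 R273H, with 3 arrays. The labels give no change to the endogenous p53 gene in either group, and both groups were selected with antibiotic, isolated by clonal growth and kept in the same medium with serum, epithelial growth factor, insulin and estradiol. R273H is an arginine to histidine change in the DNA-binding domain of p53. Successive passages of a line served as its replicates. A p-value here thus rests on the spread among passages, and a difference due to the plasmid cannot be told apart from a difference between the cells that founded the lines.

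Cytobands are the light and dark stripes seen on stained chromosomes. They are named by a letter that runs from A near the centromere and by a number within the letter, and they reflect differences in base composition, gene density and replication timing. In cultured cells and tumours whole chromosomes or arms can be gained or lost, and the expression of many genes of such a stretch then tends to follow its copy number. Neighbouring genes can also be co-regulated through shared chromatin, and tandem gene families can sit within 1 band. The arrays measured RNA only. DNA copy number was not analysed here.

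Array medians lay between 4.51 and 4.58, and Pearson's r over all genes was between 0.991 and 0.993 for arrays of the same group and between 0.963 and 0.966 for arrays of different groups. Trp53, the mouse gene for p53 on chromosome 11, read 10.05, 10.00 and 10.14 with empty vector and 9.49, 9.28 and 9.39 with p53 R273H. Whether its probes also read the plasmid's transcript is not known, so it does not check the labels. Of 8 oviductal epithelial markers 7 were above the level, with Epcam below it, and 1 rose and 3 fell. No leukocyte marker was above the level (0 of 4), although 1 of them, Ptprc, rose below it, from a mean of 3.50 to 4.10. Above the level were 3 of 4 fibroblast (2 risen, 1 fallen), 3 of 4 smooth muscle (0 risen, 1 fallen), 2 of 4 endothelial (0 risen, 0 fallen) and 2 of 3 mesothelial markers (1 risen, 1 fallen). Their part in the results below was not tested. In bulk RNA, fewer cells of a type and less RNA per cell cannot be told apart.

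Promoters were taken from RefSeq (GRCm38.p6) for the genes that led the bands described below, from 250 bases before to 50 after the start. They are printed 5′ to 3′ along the gene's strand. Capitals mark motif matches on either strand. The motifs are the GC box, searched as GGGCGG, and the CCAAT box, searched by the letters of its name. The TATA box was searched as TATAAA, and the p53 half-site is given by its name only. Overlapping matches share their capitals. The first is the promoter of Dhrs9 in band C2 (chr2:69380212-69380511, plus strand), the gene with the largest rise among members with a promoter in the table. The next are those of Cd302 (chr2:60284435-60284734, minus strand) and Ssfa2 (chr2:79635175-79635474, plus strand), which rose most in C1.1 and D, the bands with the highest medians.
Dhrs9: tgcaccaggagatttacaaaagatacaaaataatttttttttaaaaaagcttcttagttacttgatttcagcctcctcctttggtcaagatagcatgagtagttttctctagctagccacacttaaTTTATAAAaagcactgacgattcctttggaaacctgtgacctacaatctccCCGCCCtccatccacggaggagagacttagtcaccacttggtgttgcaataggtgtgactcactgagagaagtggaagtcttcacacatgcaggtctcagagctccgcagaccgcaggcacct
Cd302: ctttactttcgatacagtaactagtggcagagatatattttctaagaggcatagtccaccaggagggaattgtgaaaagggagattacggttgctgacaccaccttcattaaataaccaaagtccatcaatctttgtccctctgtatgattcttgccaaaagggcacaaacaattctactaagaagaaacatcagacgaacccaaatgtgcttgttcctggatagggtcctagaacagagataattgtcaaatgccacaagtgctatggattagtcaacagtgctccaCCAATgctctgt
Ssfa2: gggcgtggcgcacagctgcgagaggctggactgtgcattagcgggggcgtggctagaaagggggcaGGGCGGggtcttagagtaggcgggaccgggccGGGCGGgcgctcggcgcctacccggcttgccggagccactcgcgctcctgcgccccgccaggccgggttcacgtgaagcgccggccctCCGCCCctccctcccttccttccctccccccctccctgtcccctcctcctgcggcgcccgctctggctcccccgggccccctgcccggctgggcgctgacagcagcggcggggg

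These promoters differ in make-up. That of Ssfa2 has a GC content of 77.0% with 32 CpG dinucleotides and 3 GC boxes, that of Dhrs9 has 43.7% with 5 CpG, 1 GC box and 2 overlapping TATA box matches, and that of Cd302 has 41.3% with 3 CpG and 1 CCAAT box. None of the 3 holds the p53 half-site as searched. Of all 27025 RefSeq promoters, 35.9% held a GC box, 37.9% a CCAAT box, 14.2% a TATA box and 8.37% a p53 half-site. RefSeq promoters were found for 896 of the 1057 members but for only 75.2% of all genes above the level, so a comparison of motif shares between them is void and is not given. A match is a description and not evidence of a bound factor.

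As a whole, chromosome 2 read slightly higher in the p53 R273H line. Of the 1057 members 299 rose and 106 fell (limma, adjusted p below 0.05 over all 24619 genes), which is 28.3% and 10.0%. Among all 14932 genes above the level 18.2% rose and 18.3% fell. The median log2 difference, p53 R273H minus empty vector, was 0.15 over the members and 0.00 over all genes above the level. The median over members of the value minus the gene's empty vector mean was 0.0001, -0.0035 and 0.0044 in the empty vector arrays and 0.14, 0.16 and 0.18 in the p53 R273H arrays, so the arrays of the groups did not overlap.

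Over the whole chromosome the excess of rises was made of modest differences. At 2-fold or more, 47 members rose and 43 fell, or 4.45% and 4.07%, against 4.14% and 4.9% of all genes above the level. Large changes over the chromosome were thus about as common as over all genes and went both ways. The lettered regions differed in this. In C and D together 18 of 110 members rose at least 2-fold and 1 fell, whereas in H 4 of 267 rose and 18 fell. Without the level filter 316 of 1856 genes rose and 113 fell, against 11.9% and 11.7% of all genes tested, and the median was 0.09. Of the members 85 passed the level through 1 group only, 45 through p53 R273H and 40 through empty vector, and 24 of them rose and 16 fell. A filter on the mean of all 6 arrays, which favours neither group, kept 1017 genes, of which 291 rose and 103 fell. In the authors' deposited table, 232 members were higher and 81 lower at a step-up p-value below 0.05. The same count was not made over all genes, so these numbers cannot be read against the array.

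Just inside the level were Wfdc15a, Pax1 and Nxph2, whose higher group means were 4.53, 4.54 and 4.54. Just outside were Sdcbp2 at 4.53 and Slc24a5 and Nron at 4.52. The differences of these 6 genes lay between -0.15 and 0.03. The level therefore cuts through a continuum of dim genes, and whether signals near it exceed the array's background is not given.

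Among the autosomes and the X chromosome, only chromosome 5 had a higher median over genes above the level, 0.44, with 461 of 836 genes risen and 41 fallen. Chromosome 19 lay close to chromosome 2, with a median of 0.13 and 110 of 447 genes risen and 42 fallen. Chromosomes 14, 15 and X stood on the other side with medians of -0.28, -0.39 and -0.30. On these 3 chromosomes 186 of 464, 294 of 551 and 176 of 423 genes fell. The genes of the prevailing direction were 55.1% of those on chromosome 5, 40.1% on 14, 53.4% on 15 and 41.6% on X. Among the lettered regions of chromosome 2 only C and D reached such shares.

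**Figure D1:**
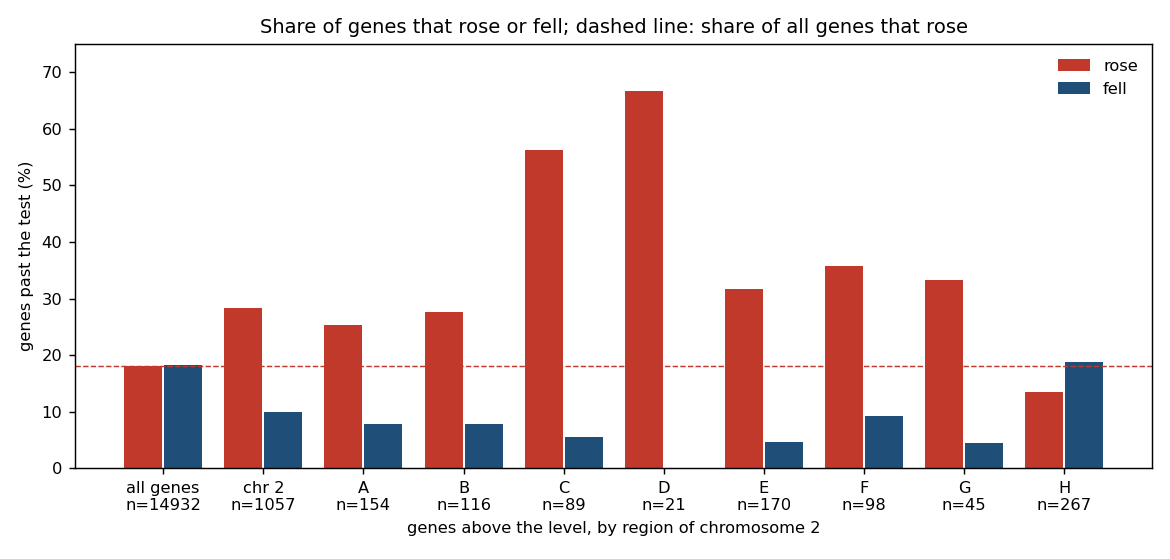
Bars give the percentage of genes above the level that rose (red) or fell (blue) past the limma test for all genes, chromosome 2 and each lettered region, with the number of genes under each. Regions C and D stand at 56.2% and 66.7% risen, regions A, B, E, F and G between 25.3% and 35.7%, and region H at 13.5%, below the dashed line that marks all genes.

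The lettered regions differed from each other more than the whole chromosome differed from the array. A letter was given for 960 members. Region C (89 members) had a median log2 difference of 0.51, with 50 risen and 5 fallen, and region D (21 members) had a median of 0.68, with 14 risen and 0 fallen. Regions A (154 members), B (116), E (170), F (98) and G (45) had medians of 0.13, 0.22, 0.21, 0.27 and 0.27. In these 5 regions 39, 32, 54, 35 and 15 genes rose and 12, 9, 8, 9 and 2 fell. Region H (267 members), at the end far from the centromere, had a median of -0.02 with 36 risen and 50 fallen. The 97 members without a letter had a median of 0.09, with 24 risen and 11 fallen.

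Region H was therefore close to the array as a whole, with 13.5% risen and 18.7% fallen, and its median changed sign with the scaling of the arrays (0.01 after quantile normalization and 0.02 after subtraction of array medians). Without the level filter its median was 0.00, with 38 of 365 genes risen and 50 fallen. For regions A to G together, 239 of 693 members rose and 45 fell (34.5% and 6.49%). Without the level filter 252 of 1279 genes in A to G rose and 51 fell (19.7% and 3.99%), and the medians of C and D were then 0.16 and 0.11. These unfiltered medians include many dim genes, such as the 163 olfactory receptor genes among the 221 genes of E1.

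By array, region C read -0.03, 0.01 and 0.01 with empty vector and 0.50, 0.51 and 0.55 with p53 R273H. Region D read 0.04, -0.04 and 0.02 with empty vector and 0.65, 0.65 and 0.71 with p53 R273H. In every region from A to G the 3 p53 R273H arrays lay above the 3 empty vector arrays. In region H the arrays overlapped, at 0.0020, 0.0100 and 0.0003 with empty vector and -0.0118, 0.0036 and -0.0152 with p53 R273H. No test of a region is given, because its genes share arrays and are not replicates, and the genes were chosen with results of these arrays in view.

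**Figure D2:**
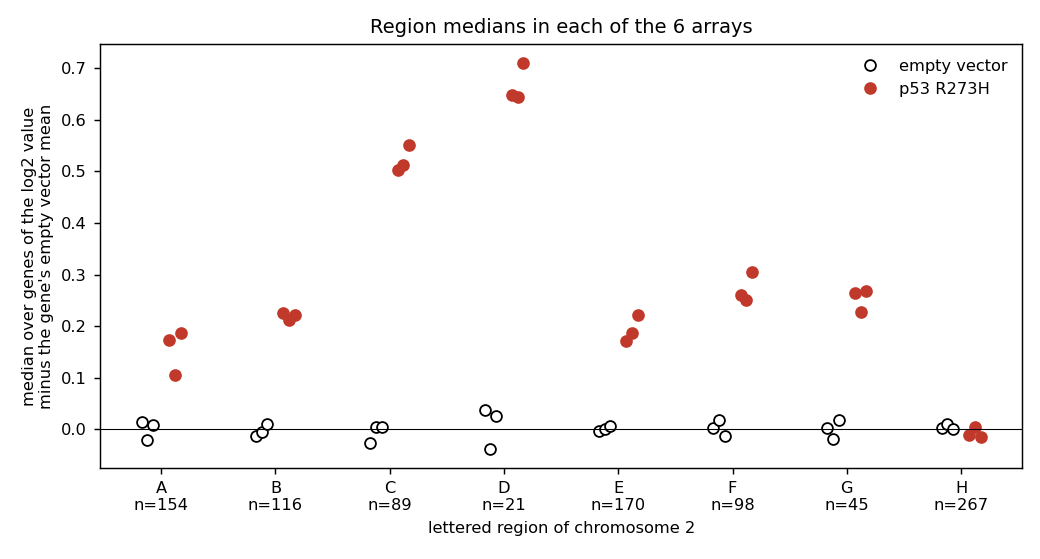
Each point is 1 array, and its height is the median over the members of a lettered region of the log2 value minus that gene's mean over the 3 empty vector arrays (open circles empty vector, red p53 R273H). The p53 R273H arrays read 0.50 to 0.55 in C and 0.65 to 0.71 in D, and they mix with the empty vector arrays in H.

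Within the lettered regions, 19 bands had 10 or more members and together held 898 of them. The median difference was above 0 in 16 bands and below 0 in the other 3, H2, H3 and H4. The highest were C1.1 at 0.79 (19 members, 16 risen and 0 fallen), D at 0.68, C3 at 0.46 (39 members, 21 risen and 2 fallen) and C2 at 0.36 (21 members, 11 risen and 2 fallen). Then came E4 at 0.34 (10 members), F1 at 0.32 (55), F3 at 0.27 (31), E5 at 0.26 (66), E1 at 0.23 (51), B at 0.22 and G3 at 0.19 (31). Bands with lower medians above 0 were E3 at 0.15 (17 members), A3 at 0.13 (108), E2 at 0.12 (21), H1 at 0.09 (86) and A1 at 0.09 (33). The lowest were H2 at -0.01 (26 members), H3 at -0.04 (78) and H4 at -0.12 (69).

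Counts followed a similar order with exceptions. E5 had 25 risen and 0 fallen of 66 members and F1 had 22 risen and 3 fallen of 55, whereas E2 had 3 risen and 2 fallen. H3 had 6 risen and 13 fallen and H4 had 5 risen and 19 fallen. The arrays of the groups overlapped in A1, E2, H2 and H3 and did not in the other 15 bands. Neighbours in the order of medians mostly lie closer together than their arrays spread. C1.1 read 0.83, 0.67 and 0.86 in the p53 R273H arrays and D read 0.65, 0.65 and 0.71, which touch, while C3 at 0.49, 0.40 and 0.48 and C2 at 0.39, 0.45 and 0.45 lay below both.

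**Figure D3:**
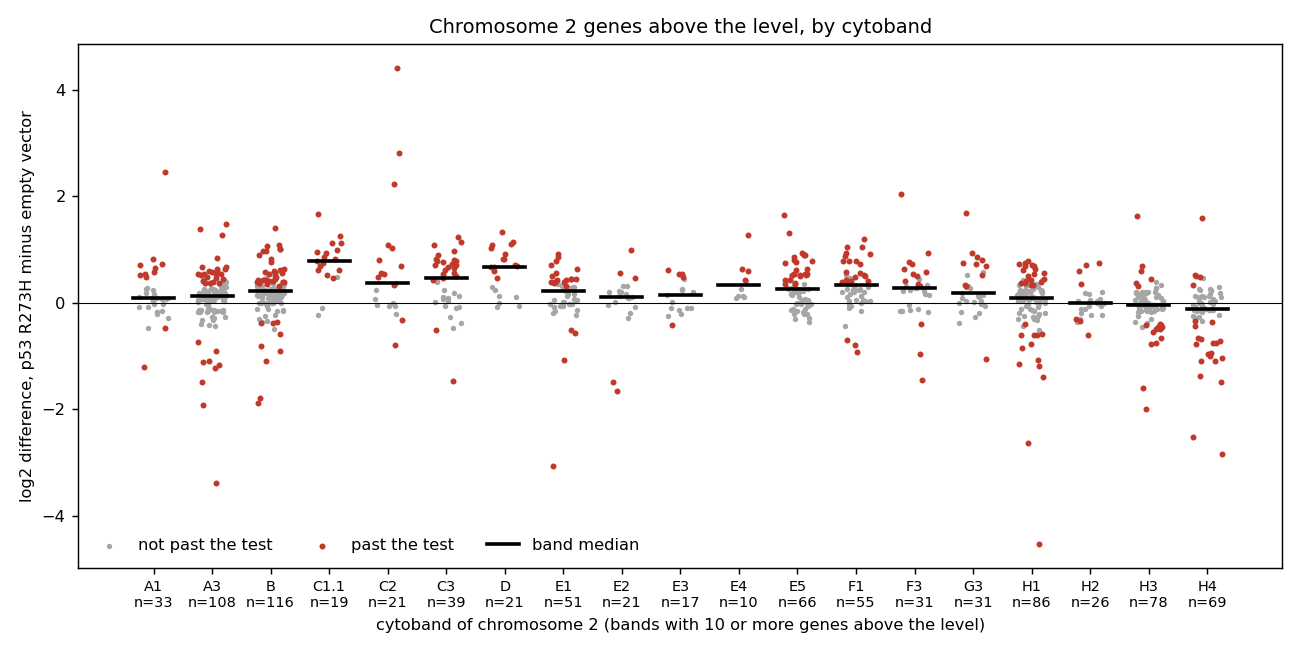
Each point is 1 member, placed by cytoband and by its log2 difference (p53 R273H minus empty vector), red where it passed the limma test; the black bar is the band median. In C1.1 and D most points lie above 0, with 16 of 19 and 14 of 21 genes risen, while bands A3, H1 and H4 hold single genes far from a median near 0.

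Band C1.1 holds receptors, cytoskeletal regulators and nuclear genes without a common function in the annotation, and its 16 rises were between 0.46 and 1.67 on the log2 scale. Cd302, a C-type lectin receptor, read 4.28, 4.57 and 4.11 with empty vector and 6.16, 5.81 and 5.99 with p53 R273H. It rose by 1.67 ± 0.15 (SE, limma adjusted p = 0.000122), starting from a level near the cut. Pla2r1, a receptor for secreted phospholipases, read 5.92, 5.98 and 5.90 against 7.27, 7.08 and 7.21 and rose by 1.25 ± 0.09 (limma adjusted p = 5.36e-05).

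Both activin-type receptors among the members of the band rose. Acvr1, a type I receptor for bone morphogenetic proteins, read 5.67, 5.87 and 5.74 against 6.81, 6.94 and 6.91 and rose by 1.13 ± 0.10 (limma adjusted p = 0.000118). Acvr2a, a type II receptor for activins and named outside the naming rule, rose by 0.75 ± 0.13 (limma adjusted p = 0.00445). Of the 3 members of C1.1 that did not pass the test, 2 carry only predicted or clone-based names, and the differences of all 3 lay between -0.23 and 0.48.

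Band C2 held the largest rise of the chromosome. Dhrs9, a short-chain dehydrogenase that acts on retinoids and steroids, read 6.20, 6.38 and 6.41 with empty vector and 10.71, 10.71 and 10.80 with p53 R273H. The groups lie far apart, with a rise of 4.41 ± 0.10 (SE, limma adjusted p = 2.08e-07) or 21.3-fold. Lrp2 (megalin), an endocytic receptor of absorptive epithelia, read 6.10, 6.07 and 6.20 against 8.97, 8.91 and 8.95 and rose by 2.82 ± 0.09 (limma adjusted p = 7.9e-07). These genes rose far more than the median of their band, 0.36.

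In C3 the named rises were each about 2-fold. The band in the deposited text and the RefSeq order differ for some of these genes. Pkp4 and Wdsub1, at ranks 310 and 311 along the chromosome, lie among genes of C1.1. Nckap1, at rank 387, lies where genes of C3 and D are mixed. Wdsub1 rose by 1.24 ± 0.11, Nckap1, a subunit of the WAVE complex that promotes actin branching, by 1.14 ± 0.09, and the junctional plakophilin Pkp4 by 1.08 ± 0.12 (limma adjusted p between 9.04e-05 and 0.000373). Nckap1 read 9.16, 9.08 and 9.13 against 10.30, 10.15 and 10.33. Of the 5 falls within region C the naming rule picked Ccdc141 in C3, which fell by 1.48 ± 0.10 (limma adjusted p = 2.81e-05), and the adaptor Grb14 in C1.3. Grb14 fell by 0.62 ± 0.16 (limma adjusted p = 0.0246), a call lost under some alternatives. The others, named outside the rule, were G6pc2 by 0.79, Nfe2l2 by 0.50 and Tlk1 by 0.32. Itga6, the integrin alpha 6 chain, is placed in region C without a number and rose by 1.25 ± 0.11 (limma adjusted p = 0.000117).

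In band D all 14 calls were rises, between 0.47 and 1.33 on the log2 scale. Ssfa2 read 6.32, 6.44 and 6.61 against 7.94, 7.61 and 7.82 and rose by 1.33 ± 0.12 (limma adjusted p = 0.000171). Itgav, the integrin alpha V chain, read 9.32, 9.42 and 9.40 against 10.53, 10.40 and 10.52 and rose by 1.11 ± 0.09 (limma adjusted p = 8.85e-05). Ctnnd1 (p120-catenin), which stabilizes cadherins at the membrane, rose by 1.08 ± 0.12 (limma adjusted p = 0.000345). Other members with quite different roles rose by similar amounts, among them Dnajc10, a disulfide reductase of the endoplasmic reticulum, by 0.82 ± 0.10 and Mtx2, a protein of the outer mitochondrial membrane, by 0.82 ± 0.09. Of the 7 members that did not pass, 3 are olfactory receptor genes, and the 7 differences lay between -0.07 and 0.29.

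The differences in C and D were larger in brighter genes. With all members split by level into 3 classes of equal size, the median was 0.16 in the 34 dim genes of these regions, 0.51 in the 38 of the middle class and 0.70 in the 38 bright ones, where 31 rose and 2 fell. For all regions A to G the medians were 0.02, 0.27 and 0.33. In region H they were -0.02, 0.00 and -0.03. Signal over background is not given, and its part in this pattern was not tested.

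In the order of genes along the chromosome, given by RefSeq for 1040 members, the difference was read as a running median over 21 neighbours. Of 1020 windows 833 lay above 0, and of the 187 below 0, 142 were centred in region H. The highest window, from Rif1 to Rbms1, had a median of 0.88 with 17 of 21 genes risen and 0 fallen, and all its lettered members lie in region C. Windows at 0.40 or more numbered 102, and 98 of these formed 3 stretches. The stretches were centred on Kif5c to Phospho2 (43 windows), Ubr3 to LOC329427 (26) and Agps to Smtnl1 (29), which together run from C1 through D to the start of E1. Among the central genes of these stretches 28 of 43, 16 of 26 and 19 of 29 rose, and 2, 1 and 1 fell.

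Adjacent members were also compared by the sign of their differences. Adjacent members had differences of the same sign in 60.8% of 1039 pairs on chromosome 2, against 58.2% of 14485 adjacent pairs on all chromosomes. The share was 63.1% of 84 pairs in region C and 52.3% of 262 in H, and in D 15 of 20 pairs had the same sign. Such shares also depend on how many differences are positive. Positive were 65.7% over members, 76.4% in C, 85.7% in D and 47.6% in H, against 50.2% over all genes above the level. The pairs therefore cannot tell whether neighbours move together.

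**Figure D4:**
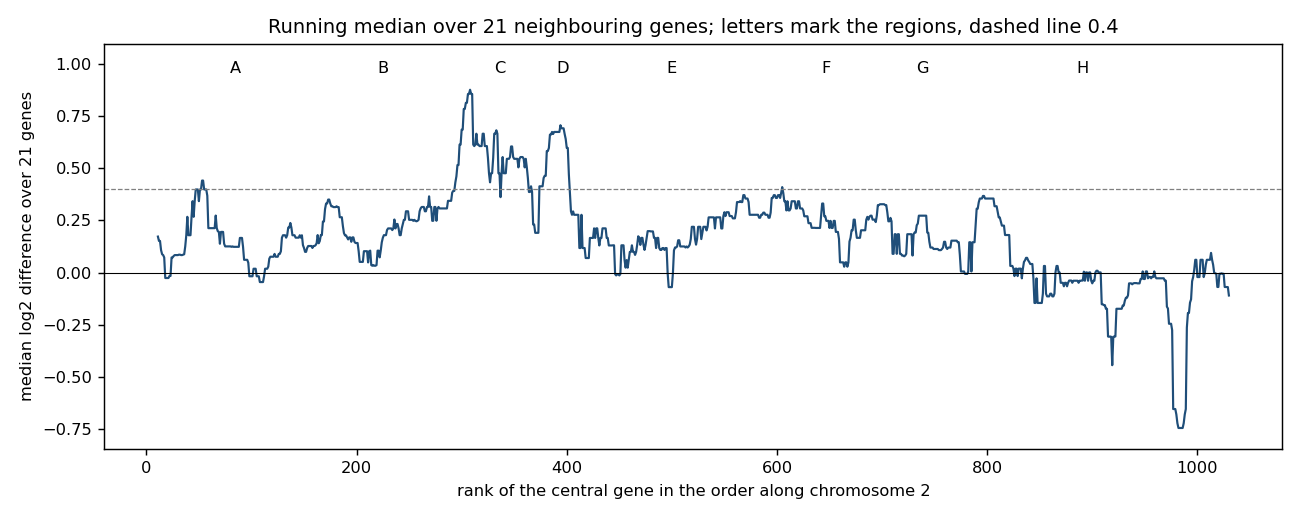
The line is the median log2 difference (p53 R273H minus empty vector) over 21 neighbouring members, plotted at the rank of the central gene, with letters at the middle of each region and a dashed line at 0.4. It peaks at 0.88 in C, stays at 0.40 or more over most of C and D, is mostly above 0 elsewhere from A to G, and dips to -0.75 in H4.

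The lowest window lay in H4, from Ctsz to Zfp931, with a median of -0.75 and 14 of 21 genes fallen. All of these falls belong to 1 run of 17 adjacent members from Gm14391 to Zfp931, singled out after its values were seen. Of the 17 genes 14 fell and 0 rose, with a median of -0.94. Etohi1, which RefSeq lists as the zinc finger gene Zfp971, read 8.05, 7.82 and 8.03 with empty vector and 6.56, 6.51 and 6.35 with p53 R273H. It fell by 1.49 ± 0.11 (SE, limma adjusted p = 4.74e-05). Gm14288 read 7.63, 7.62 and 7.55 against 6.07, 6.29 and 6.29. Gm14322, with the largest fall of the run, fell by 2.84 to values between 2.69 and 3.75, below the level.

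**Figure D5:**
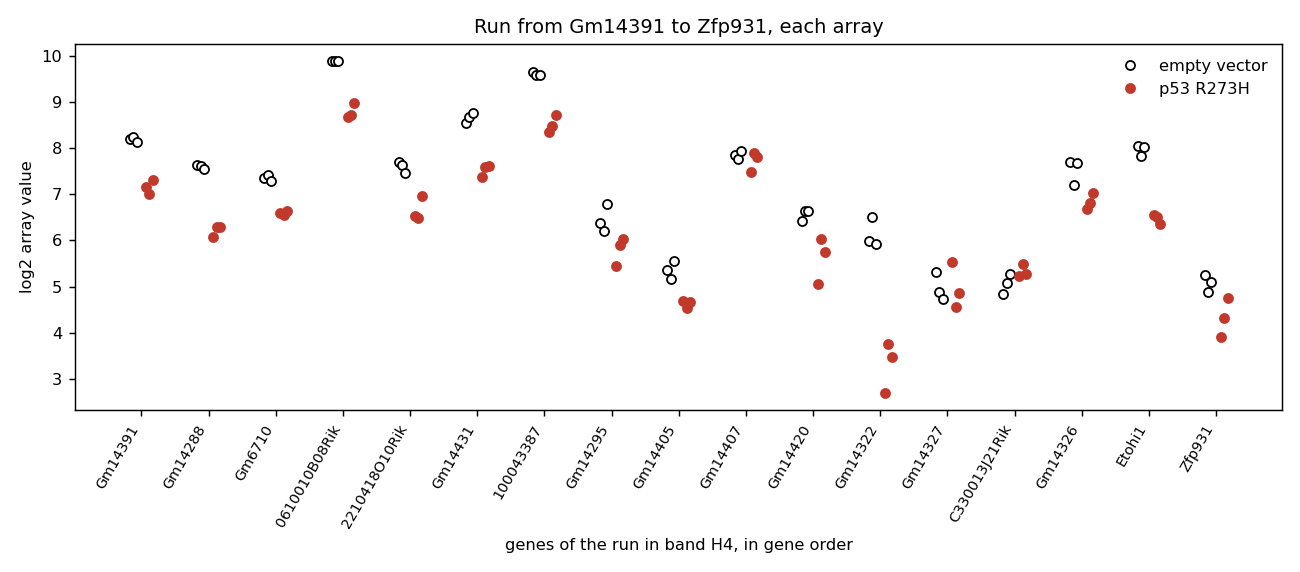
Points are the log2 values of the 17 members from Gm14391 to Zfp931 in each array, in gene order (open circles empty vector, red p53 R273H). The groups are apart in 14 of the genes and mix in Gm14407, Gm14327 and C330013J21Rik.

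The genes of the run resemble each other in sequence. Their RefSeq promoters, found for 14 of 17, were 57.2% to 97.0% identical in pairs with a median of 77.0%, against 40.4% to 59.5% with a median of 48.7% between the 15 promoters found in C1.1 (global alignment). Below are the most alike pair, 0610010B08Rik (chr2:175965105-175965404, plus strand) and Gm14326 (chr2:177957239-177957538, minus strand), and Etohi1 (chr2:178023034-178023333, plus strand). The capitals fall on the same CCAAT box matches, 1 on each strand, in all 3.
0610010B08Rik: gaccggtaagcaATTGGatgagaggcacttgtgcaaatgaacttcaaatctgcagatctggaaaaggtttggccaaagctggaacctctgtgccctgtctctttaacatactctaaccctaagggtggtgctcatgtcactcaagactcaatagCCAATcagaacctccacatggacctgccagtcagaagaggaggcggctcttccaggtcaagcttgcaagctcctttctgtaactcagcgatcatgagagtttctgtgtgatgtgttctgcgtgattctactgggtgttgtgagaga
Gm14326: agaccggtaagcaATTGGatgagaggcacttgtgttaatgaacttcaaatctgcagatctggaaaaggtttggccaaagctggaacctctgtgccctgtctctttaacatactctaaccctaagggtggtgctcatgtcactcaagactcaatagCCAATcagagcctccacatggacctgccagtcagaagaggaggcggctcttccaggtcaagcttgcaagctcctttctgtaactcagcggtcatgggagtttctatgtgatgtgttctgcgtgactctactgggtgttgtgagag
Etohi1: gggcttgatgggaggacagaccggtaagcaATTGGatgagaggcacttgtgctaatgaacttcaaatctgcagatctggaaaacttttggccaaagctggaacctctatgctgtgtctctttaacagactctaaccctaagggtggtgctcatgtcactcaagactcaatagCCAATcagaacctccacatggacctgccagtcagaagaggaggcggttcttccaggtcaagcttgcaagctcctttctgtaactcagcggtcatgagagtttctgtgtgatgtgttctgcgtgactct

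All 14 promoters of the run held a CCAAT box (100%, against 37.9% of all promoters of the table) and none a GC box, a TATA box or the p53 half-site as searched. Since promoters of the run resemble each other to varying degrees, these are not 14 independent matches. In the deposited annotation 8 of the 17 rows, all of which fell, also give a transcript of another gene of the run, up to 4 other genes in 1 row. The calls are therefore uncertain as calls on separate genes, since 1 transcript could be read by several rows, and shared hybridization was not tested. Without the run, H4 had 53 members with a median of -0.04, 5 risen and 6 fallen, and region H had a median of -0.0015 with 36 risen and 37 fallen.

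Region H also held the largest fall of the chromosome. Of its 267 members 18 fell at least 2-fold, out of 43 such falls on the chromosome. Without the run above, 12 of 251 members of H did, about the share over all genes above the level (4.9%). Lbp, the lipopolysaccharide-binding protein of the acute phase response, lies in H1 and read 8.80, 8.94 and 8.85 with empty vector and 4.46, 4.32 and 4.25 with p53 R273H. It fell by 4.52 ± 0.10 (SE, limma adjusted p = 2.08e-07), to below the level. Slpi, a secreted inhibitor of leukocyte proteases, read 7.93, 7.92 and 7.62 against 4.73, 4.92 and 4.85 and fell by 2.99 ± 0.12 (limma adjusted p = 2.06e-06). Tgm2, a transglutaminase that crosslinks proteins, read 9.85, 9.97 and 9.98 against 7.42, 7.51 and 6.98 and fell by 2.63 ± 0.15 (limma adjusted p = 1.25e-05).

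In H3 and H4 the named falls include genes of the cell surface and basement membrane. Lama5, the laminin alpha 5 chain in H4, read 9.01, 9.07 and 9.11 against 6.63, 6.54 and 6.44 and fell by 2.53 ± 0.09 (limma adjusted p = 1.7e-06). Sulf2, a sulfatase that edits heparan sulfate, fell by 2.00 ± 0.10 (limma adjusted p = 6.57e-06), the transcriptional cofactor Eya2 fell by 1.59 ± 0.11 and the proteoglycan Sdc4 fell by 0.77 ± 0.09. Rises in the same region were those of Tfap2c, an AP-2 transcription factor, by 2.34 ± 0.11 (limma adjusted p = 5.03e-06), and Pmepa1, an inhibitor of TGF-beta signalling, by 1.63 ± 0.11 (limma adjusted p = 3.11e-05). Tfap2c read 4.02, 3.90 and 4.04 with empty vector, below the level, and 6.49, 6.19 and 6.29 with p53 R273H. In H2 the named falls were small, the largest being that of the phosphatidate phosphatase Lpin3, which fell by 0.60 ± 0.10 (limma adjusted p = 0.00323).

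Single genes also went against the drift of their region from A to G. In A3 by the text, though at rank 227 among genes of B in the RefSeq order, Lcn2, a lipocalin that binds bacterial siderophores, read 7.66, 7.75 and 7.92 with empty vector and 4.19, 4.62 and 4.41 with p53 R273H and fell by 3.37 ± 0.13 (limma adjusted p = 2.11e-06). Also in A3, the interleukin 1 receptor antagonist Il1rn fell by 1.92 ± 0.12 (limma adjusted p = 2.05e-05). In B the actin-binding protein Aif1l fell by 1.88 ± 0.10 and the signalling adaptor Traf1 fell by 1.78 ± 0.19 (limma adjusted p = 8.15e-06 and 0.000326). In E1 the synaptotagmin Syt13 read 9.06, 8.94 and 9.05 against 5.91, 6.04 and 5.94 and fell by 3.05 ± 0.09 (limma adjusted p = 7.42e-07). In F3 Sirpa, the receptor for CD47, fell by 1.45 ± 0.11 (limma adjusted p = 5.06e-05).

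The named rises outside C, D and H were spread over bands, predicted genes and clone names being left out (5430407P10Rik in A1 rose by 2.46). Btbd3 in F3 rose by 2.03 ± 0.11, Rin2, a Rab5 exchange factor in G1, by 1.99 ± 0.17, and Kif16b, an endosomal kinesin in G3, by 1.68 ± 0.10 (limma adjusted p between 1.15e-05 and 0.000118). Btbd3 read 6.09, 6.03 and 5.75 against 8.02, 7.94 and 7.99. Chac1 in E5, a glutathione-degrading enzyme of the amino acid response, rose by 1.64 ± 0.13 (limma adjusted p = 6.38e-05), and Meis2, a homeodomain factor of region E, by 1.49 ± 0.12 (limma adjusted p = 8.05e-05). In A3 the deubiquitinase Otud1 rose by 1.48 ± 0.12 and Etl4 by 1.38 ± 0.09, and in B Fam102a rose by 1.40 ± 0.12.

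Functional lists of chromosome 2 genes, chosen with earlier results of these data known, cut across the bands. Their counts stand beside 28.3% risen and 10.0% fallen over all members and 18.2% and 18.3% over all genes above the level. Of 13 mitosis genes 10 rose and 0 fell, with a median of 0.45. RefSeq places 5 more genes of this list on the chromosome, of which Bub1b and Spc25 rose and Bub1, Tpx2 and Dsn1 did not pass the test, at 0.23, 0.24 and 0.28. Where a band is given, they lie in E, F and H. Ncaph, a condensin subunit in F1, read 8.22, 8.33 and 8.30 against 9.18, 9.18 and 9.13 and rose by 0.88 ± 0.09 (limma adjusted p = 0.000227), and the kinetochore scaffold Casc5 in E5 rose by 0.86 ± 0.12 (limma adjusted p = 0.0016). Of 8 genes of endoplasmic reticulum chaperones and stress 6 rose and 0 fell, with Dnajc10 the largest and Trib3, a pseudokinase of the stress response, at 0.74 ± 0.10 (limma adjusted p = 0.00118).

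Of 8 genes of the TGF-beta, BMP and activin pathways 4 rose and 1 fell. Grem1, a secreted BMP antagonist in E4, read 3.82, 4.20 and 3.86, below the level, against 5.21, 4.96 and 5.52 and rose by 1.27 ± 0.17 (limma adjusted p = 0.00105), and the repressor Tgif2 fell by 0.41 ± 0.12 (limma adjusted p = 0.0487), a call lost under some alternatives. Of 7 integrin and adhesion genes 4 rose and 1 fell, the latter being the integrin activator Fermt1, which fell by 0.95 ± 0.16 (limma adjusted p = 0.00315). Of 14 matrix genes 2 rose and 4 fell, with Thbs1, a matricellular glycoprotein of region F, rising by 1.21 ± 0.09 (limma adjusted p = 6.03e-05). Of 11 DNA replication genes 4 rose and 1 fell, among them E2f1, a transcription factor of S phase entry, which rose by 0.74 ± 0.13 (limma adjusted p = 0.00422).

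Lists tied to secretion and inflammation were mixed. Of 3 members of the interleukin 1 cluster 2 fell, Il1rn and Il1f6 (interleukin 36 alpha, which fell by 1.49 ± 0.12), and 0 rose. Of 4 members of the lipocalin list 2 fell, Lcn2 and the prostaglandin D synthase Ptgds by 1.23 ± 0.13, and 0 rose. In the RefSeq order Lcn2, at rank 227, lies apart from Ptgds, Lcn12 and Lcn10, at ranks 102, 103 and 113. Of 12 immune genes 3 rose and 3 fell, with the protein C receptor Procr rising by 1.37 ± 0.10. Of 6 WFDC and cystatin inhibitors 1 rose (Cst3) and 1 fell (Slpi), and of 4 prostaglandin enzymes 1 rose (Ptgs1, cyclooxygenase 1) and 1 fell (Ptgds).

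Regulators went both ways. Of 15 lineage transcription factors 3 rose and 3 fell, shares close to those of all genes above the level. Wt1, the Wilms tumour factor of region E, read 7.76, 7.56 and 7.65 against 5.63, 5.81 and 5.73 and fell by 1.93 ± 0.10 (limma adjusted p = 8.47e-06), the epithelial ETS factor Ehf in E2 fell by 1.66 ± 0.12, and the nuclear receptor Nr4a2 rose by 1.33 ± 0.12. Of 8 Notch and Wnt genes 3 rose and 2 fell. The receptor Notch1 fell by 1.16 ± 0.11 and its feedback inhibitor Nrarp fell by 0.73 ± 0.12, both in A3, while the ligand Jag1 in F3 rose by 0.35 ± 0.09 (limma adjusted p = 0.0214), a call lost under some alternatives.

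Of 3 p53 target and cell death genes 1 rose, the survival gene Bcl2l1 by 0.68 ± 0.11, and 2 fell, the BH3 gene Bcl2l11 by 0.90 ± 0.12 and Blcap by 0.77 ± 0.12. Of 5 genes listed as imprinted 1 rose, Mcts2, and 3 fell. The falls include Wt1 and Blcap, which are also counted in other lists, and whether Wt1 is imprinted in these cells was not tested. Of 5 genes of the Hoxd cluster and its flanks the flanking genes Mtx2 and Lnp rose, and the homeobox genes Hoxd8, Hoxd10 and Evx2 did not pass, at 0.13, -0.09 and 0.09. None of the 4 ribosomal protein genes passed the test (0 of 4).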

How the data were processed

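RNA for 3 empty vector and 3 p53 R273H arrays was biotin labelled (Affymetrix WT PLUS kit), per the labels' protocols. Deposited by the authors were log2 values for 41345 transcript clusters together with a comparison table with a p-value, a step-up p-value, a ratio and a signed fold (a score), per the file headers. The log2 scale was checked against the deposited ratio, whose log2 equals the group difference to within 6.64e-05. The sources used here name no array model, normalization or genome build.

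Symbols and bands came from the deposited text, which is cut after 87 characters, so some genes show no location. Rows naming several genes were left out, and the brightest row stood for each symbol. limma 3.58.1 (R 4.3.3; lmFit, then eBayes, no covariates, two-sided) compared the 24619 genes, with Benjamini-Hochberg adjustment over all genes and a threshold of 0.05. The fit was tested on simulated data. Bands with 10 or more members were described by medians and counts. RefSeq (GRCm38.p6) gave the order and names of genes and the promoters, and agreed on chromosome 2 for all 1808 genes it matched; its coordinates belong to the promoters only.

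Members and 17 lists were chosen with earlier results of these data known. Named genes are the 2 largest rises and falls per region without overlap of groups, the 3 largest in the direction of the median in the 3 highest and 3 lowest bands, and the 2 largest each way per list; predicted genes, olfactory receptors and small RNAs were left out, and exceptions are marked. Alternatives were other scaling, filters, variance models, row averaging, a replicate block, leaving out arrays, adding genes placed by RefSeq, protein-coding genes only and leaving out the H4 run, the last 3 chosen after seeing the data.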

Additional observations from a re-analysis of the deposited data

How the results depend on the processing

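The count of risen genes (299) and of fallen genes (106) stayed within 1.5 times under other scaling, variance models, row averaging and gene sets. Exceptions were the call of at least 2-fold (47 and 43) and, for fallen genes only, a level at the 75th percentile. That level left 65 fallen, while its 225 risen stayed within 1.5 times. Leaving out 1 array gave 239 to 252 risen and 81 to 92 fallen. With the replicate number as a block 256 rose and 90 fell. Same-numbered arrays did not deviate together (r of -0.0703, 0.0113 and 0.00228, against -0.0569 to 0.0517 for arrays of different number). These values cannot tell whether same-numbered arrays were handled together. No median has a test; the medians moved by more than the spread of the arrays as follows. The chromosome median (0.1487) was 0.1767 after quantile normalization, 0.1901 after subtraction of array medians, 0.0896 without the level filter and 0.2451 at the 75th percentile. After quantile normalization E, F and H were 0.2385, 0.3053 and 0.0105. After subtraction of array medians A, B, C, E, F, G and H were 0.1724, 0.2573, 0.5299, 0.2518, 0.3116, 0.3109 and 0.0162. Without the level filter regions A to H were 0.0857, 0.1641, 0.1569, 0.1073, 0.1121, 0.1738, 0.0637 and 0.0049, since dim genes differed less. At the 75th percentile A to G were 0.2382, 0.2602, 0.6299, 0.8214, 0.3071, 0.3031 and 0.3407. With protein-coding genes alone C and H were 0.5508 and -0.0077. Leaving out 1 array gave a range of 0.1431 to 0.1687 for the chromosome. The ranges for the regions were 0.1172 to 0.1651 for A, 0.1968 to 0.2328 for B, 0.4847 to 0.5336 for C and 0.6245 to 0.7221 for D. They were 0.1957 to 0.2272 for E, 0.2669 to 0.3165 for F, 0.1635 to 0.2855 for G and -0.0411 to -0.0112 for H. G fell to 0.1635 without p53 R273H replicate 3. H moved by over 1.5 times without empty vector replicate 3 (-0.0411) and without p53 R273H replicate 1 (-0.0112). Where the construction of an alternative does not show it, the cause was not tested. Of the 19 bands 3 changed the sign of their median under some alternative, and scaling moved no band median by more than 0.0556. Of 988 values of the named genes under alternatives 931 stayed on the same side of the threshold, 57 lost the call in 10 genes (Grb14, Jag1, Lrp4, Mmp24, Samhd1, Slc12a5, Srsf6, Ssrp1, Tcea2 and Tgif2) and 0 reversed. Precision is limited by having 3 arrays a group, and signal over background is not given.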

Other observations

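The deposited annotation is cut short, and RefSeq places 190 further genes on chromosome 2 whose text gives no location. Of these 125 were above the level, and 36 rose and 8 fell (28.8% and 6.4%), with a median log2 difference of 0.18. The count includes a row named COX1, which did not pass the test and was matched to Ptgs1. Ptgs1 is already a member through a row of its own, so the place of the COX1 row on chromosome 2 is doubtful. By the region of the nearest banded members, 12 genes were assigned to C, with 9 risen and 2 fallen and a median of 0.56. Assigned to E were 14 genes (7 risen, 2 fallen, median 0.42), and to H 43 genes (7 risen, 1 fallen, median 0.09). Assigned to A were 18 genes (3 risen, 1 fallen, median -0.04), a median on the other side of 0 from the 0.13 of the members of A. These genes were not used to describe the bands.

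Small RNAs of the chromosome were left out of the naming rule. Of 7 small nucleolar RNAs, which guide chemical modification of ribosomal RNA, 5 fell and 0 rose. Snord12 read 9.92, 9.94 and 9.96 with empty vector and 7.90, 8.09 and 8.24 with p53 R273H, and Snord110 read 11.49, 11.32 and 11.29 against 9.47, 9.64 and 9.76. Snord57 fell by 1.22, Snora43 fell by 0.90 and Snord17 fell by 0.85 on the log2 scale, while Snora17 and Snord67 did not pass the test at 0.06 and -0.10. On other chromosomes or without a location, 68 of 85 small nucleolar RNAs above the level fell and 0 rose. Of 5 microRNA genes Mir669a-3 fell by 1.00 and Mir467c fell by 0.44, and Mir298, Mir5115 and Mir674 did not pass. Further microRNA genes above the level are placed on the chromosome by RefSeq only. These were Mir1954, Mir297a-4, Mir3090, Mir3091, Mir466d, Mir466h and Mir669m-1, and none of them passed the test. The share of microRNA genes that fell over the whole array was not counted, so these falls cannot be read against it.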
